A study of Xenopus laevis with 4 samples.

Results

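Transcript levels of 10 genes of glycogen synthesis and breakdown were examined in whole skins of Xenopus laevis embryos, with and without the kinase inhibitor SP600125. The genes were taken by symbol, with any mark of the homeologous copy (.L or .S) removed, from the probe sets that the platform annotation gives 1 gene symbol. This found 15 of 16745 probe sets, for 11 gene copies of 7 genes. They were ppp1r3b (copies .L and .S), ugp2 (.L and .S), gys2.L, gbe1 (.L and .S), pygl.S, pygm (.L and .S) and pygb.S. No probe set carried the symbol of ppp1r3c, gys1 or agl, so these 3 were not analysed here. All 15 probe sets were kept, although 5 of them were dim, with a mean level under 5 on the log2 scale. The genes were chosen by a measured value, because ppp1r3b.L had a lower mean with a small unadjusted p-value in this same comparison. Its difference is therefore a description and supports nothing by itself, and the other genes were added for their role in the pathway.

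Glycogen is the branched polymer of glucose that cells keep as a store in the cytosol, and the egg of Xenopus supplies the embryo with such a store. UDP-glucose pyrophosphorylase (ugp2) makes the activated glucose, glycogen synthase (gys1 in muscle and most tissues, gys2 in mammalian liver) adds it to the chain, and the branching enzyme (gbe1) forms the side chains. Glycogen phosphorylase (pygl, pygm and pygb, named in mammals for liver, muscle and brain) releases glucose 1-phosphate from the chain ends, and the debranching enzyme (agl) clears the branch points. The proteins ppp1r3b and ppp1r3c bind glycogen and bring protein phosphatase 1 to it, where the phosphatase activates synthase and inactivates phosphorylase.

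The arrays compared 2 samples of skins from embryos treated with SP600125 with 2 samples of skins from untreated control embryos. SP600125 competes with ATP for the kinase JNK, which phosphorylates c-Jun and other proteins. It was given from stage 14 to stage 24 at a dose labelled as 100 mM, a unit the data cannot check, and no vehicle is named for the controls. Each sample pooled 20 skins taken at stage 24 from embryos raised at 15 °C, and nothing in the labels tells whether replicates are separate clutches, so the spread between them may be technical. The activity of JNK itself was not analysed here.

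The skin label was checked against markers. The skin marker list (26 gene copies of 16 of 24 symbols) had mean levels of 10.61 and 10.32 in SP600125 skins and 10.52 and 10.28 in control skins. Of its means, 18 were higher and 8 lower. On one side, 7 copies lay above both controls and 0 below, beside 12.3% and 9.1% of all gene copies. The brightest probe set of the list, for the goblet cell lectin itln1.L, read 14.21 ± 0.01 in SP600125 skins and 14.18 ± 0.05 in control skins (SD, n = 2). The highest level in the data was 14.26, so a difference of itln1.L might not show. Transcripts of muscle, endoderm and neural tissue were also measured, as given below. Over all probe sets, replicate number accounted for 62.7% of the sum of squares and treatment for 20.8%, so samples with the same number lay closer together than samples of the same group. In the limma fit 0 of 16745 probe sets had a Benjamini-Hochberg adjusted p under 0.05 (0% of those tested) and 269 had an unadjusted p under 0.05 (1.61%). None of the values below passed that test, so they are given as levels and differences. The fit had no term for replicate number, so differences by number entered each SE and p-value. With 2 arrays against 2 an exact permutation test of a single value cannot go below p = 0.333.

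Both copies of ppp1r3b, which encodes the glycogen-targeting subunit best known from mammalian liver, had lower levels in SP600125 skins, while most enzymes of glycogen synthesis and breakdown showed small differences or overlapping groups. Of the 15 probe sets, 3 had both SP600125 arrays above both controls and 3 had both below, or 6 on one side against 21.2% of all probe sets. Over all probe sets, 11.9% lay above and 9.25% below. The members were chosen with this contrast known, and the counts are given without a reading. The count on one side was 13 without control replicate 1 and 11 without control replicate 2, where there are fewer arrays to separate. The 21.2% holds for 2 arrays against 2 only, so these 2 counts have no share over all probe sets beside them and are not read. Differences are SP600125 minus control on the log2 scale, and their median was 0.01 over the 15 probe sets and 0.01 over all probe sets, and 8 of the 15 means were higher and 7 lower. At an unadjusted p under 0.05 there was 1 of the 15, ppp1r3b.L, and at an adjusted p under 0.05 there were 0.

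**Figure D1:**
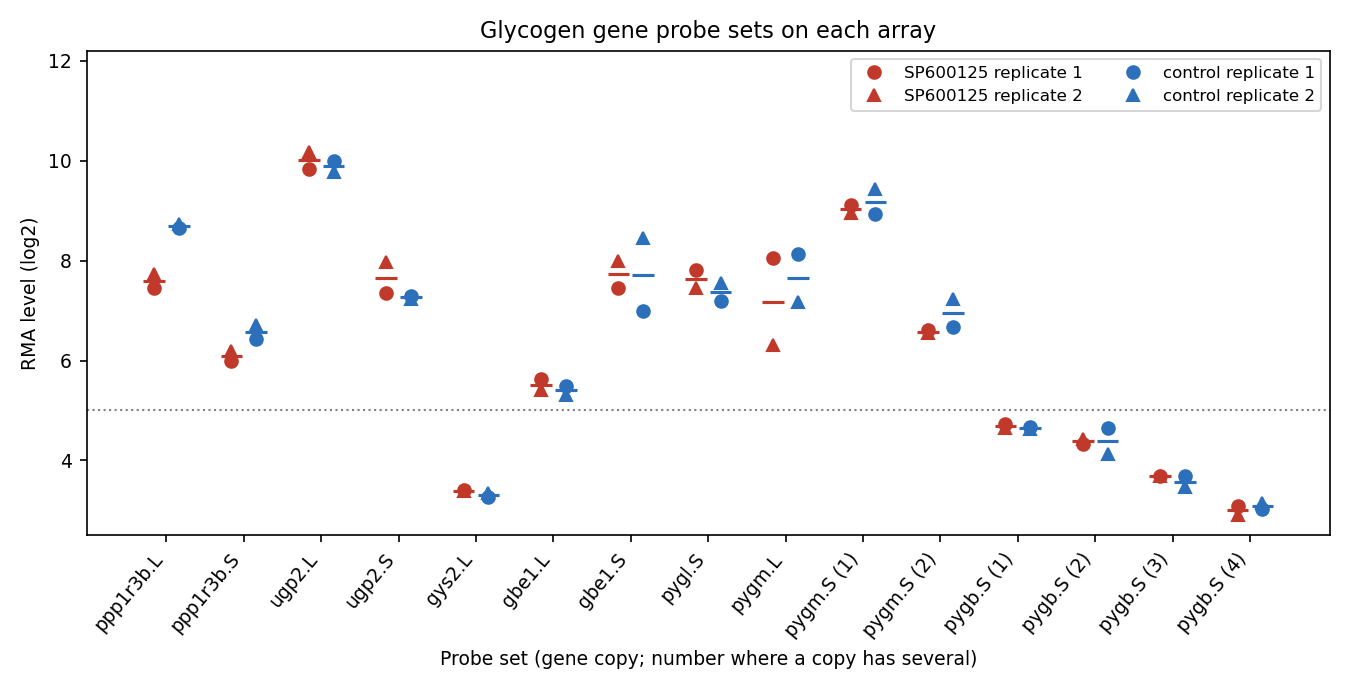
RMA level (log2) of each of the 15 glycogen gene probe sets on the 4 arrays, with SP600125 skins in red to the left and control skins in blue to the right, circles for replicate 1, triangles for replicate 2 and a bar at each group mean; the dotted line marks a level of 5. The ppp1r3b.L arrays stand apart by group, at 7.45 and 7.74 in SP600125 skins and 8.64 and 8.73 in control skins, and the 5 probe sets under the line vary little.

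The ppp1r3b.L probe set (NCBI Gene 735066) read 7.45 and 7.74 in SP600125 skins and 8.64 and 8.73 in control skins. The groups did not overlap, and the nearest pair of arrays was 0.91 apart. Its difference was −1.09 ± 0.21 (SE of the limma fit), which puts the SP600125 level at 46.9% of the control level on the linear scale. Of all probe sets, 0.776% had a difference below −1. In a whole tissue, fewer cells of a type and less RNA per cell cannot be told apart. The ppp1r3b.S probe set (NCBI Gene 443944) read 5.99 and 6.19 in SP600125 skins and 6.43 and 6.72 in control skins. These groups did not overlap either, with 0.24 between the nearest arrays. The difference was −0.48 ± 0.22, which puts the SP600125 level at 71.6% of the control level on the linear scale. Treatment accounted for 96.3% of the sum of squares of ppp1r3b.L and 79.3% of that of ppp1r3b.S. Because ppp1r3b.L was chosen by its p-value in this contrast, its high share was fixed in advance and is a description only. Probes of one homeolog can bind transcripts of the other, so the copies are not independent measurements, and whether their differences differ was not tested.

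The levels of ppp1r3b.L were set against those of every other gene copy with 1 symbol. There were 11295 copies with ppp1r3b.L included, each with 1 probe set. The measure was the distance between the 4 values after subtraction of each probe set's own mean. The nearest was hao1.L, which encodes the peroxisomal glycolate oxidase known from mammalian liver, at a Euclidean distance of 0.03 log2 units. It read 4.76 and 5.04 in SP600125 skins and 5.97 and 6.01 in control skins. The next were fbxl22.S (distance 0.14), an F-box protein gene, cd81.L (0.17), a tetraspanin gene, en2.L (0.23), a transcription factor of the midbrain, and smo.L (0.25), the Hedgehog signal transducer. Of these, fbxl22.S and en2.L were dim, at mean levels of 4.93 and 4.38. These 5 were ranked by likeness to ppp1r3b.L, itself chosen by this contrast, so their lower levels in SP600125 skins were fixed in advance. The likeness rests on 4 arrays and describes these samples only.

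The probe sets for enzymes of synthesis had mean differences from 0.01 (gbe1.S) to 0.40 (ugp2.S). The ugp2.L probe set read 9.84 and 10.17 in SP600125 skins and 10.0001 and 9.77 in control skins. The groups overlapped, and the difference of 0.12 ± 0.23 turned to −0.04 without SP600125 replicate 2. The ugp2.S probe set read 7.34 and 7.97 in SP600125 skins and 7.29 and 7.23 in control skins. Both SP600125 arrays lay above both controls, but by only 0.05 for replicate 1, and the difference of 0.40 ± 0.29 came mostly from replicate 2, at 0.08 without it.

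Glycogen synthase was represented only by the liver type, gys2.L, which was dim. It read 3.40 and 3.38 in SP600125 skins and 3.27 and 3.34 in control skins, a difference of 0.09 ± 0.19 with a gap of 0.04 between the groups. At such levels a small difference is compressed by RMA, and the probe set gives no view of the muscle-type synthase gene. The branching enzyme gbe1.L read 5.62 and 5.42 in SP600125 skins and 5.50 and 5.30 in control skins, with overlapping groups and a difference of 0.12 ± 0.21 that ranged from 0.01 to 0.22 as each array was left out. Replicate number accounted for 74.8% of the sum of squares of gbe1.L. Its difference was 0.12 within replicate 1 and 0.11 within replicate 2. The homeolog gbe1.S varied more widely with replicate number, at 7.45 and 8.0004 in SP600125 skins and 6.99 and 8.45 in control skins. The mean difference of gbe1.S was 0.01 ± 0.57, replicate number accounted for 83.0% of its sum of squares, and the difference turned to −0.72 without control replicate 1 and to −0.27 without SP600125 replicate 2.

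The phosphorylase genes shared no one pattern over the arrays. The liver-type pygl.S read 7.82 and 7.45 in SP600125 skins and 7.19 and 7.56 in control skins. The groups overlapped, and the difference of 0.26 ± 0.26 was 0.08 without control replicate 1. It was 0.07 without SP600125 replicate 1, and 0.44 without control replicate 2 or SP600125 replicate 2. The muscle-type pygm.L read 8.05 and 6.30 in SP600125 skins and 8.13 and 7.16 in control skins. The arrays of replicate 1 were high and those of replicate 2 low in both groups, and the difference of −0.47 ± 0.72 turned to 0.01 without control replicate 1 and to 0.41 without SP600125 replicate 2.

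The homeolog pygm.S had 2 probe sets. The brighter one read 9.10 and 8.95 in SP600125 skins and 8.93 and 9.44 in control skins, a difference of −0.16 ± 0.26 with overlapping groups that turned to 0.10 without control replicate 2. The dimmer one read 6.60 and 6.56 in SP600125 skins and 6.67 and 7.23 in control skins. There both SP600125 arrays lay below both controls, by 0.07, with a difference of −0.37 ± 0.27 that was −0.09 without control replicate 2 and −0.65 without control replicate 1. Neither probe set varied with replicate number as pygm.L did, since number 2 minus number 1 was 0.17 and 0.25 for pygm.S and −1.35 for pygm.L.

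The brain-type pygb.S had 4 probe sets, all dim. Together with gys2.L they ranged from 2.92 to 4.73 over all arrays, and the differences of these 5 ranged from −0.09 to 0.12. Of the 4 pygb.S probe sets, 3 had overlapping groups. In the other, both SP600125 arrays lay above both controls by 0.01, at 3.69 and 3.69 in SP600125 skins and 3.68 and 3.47 in control skins.

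**Figure D2:**
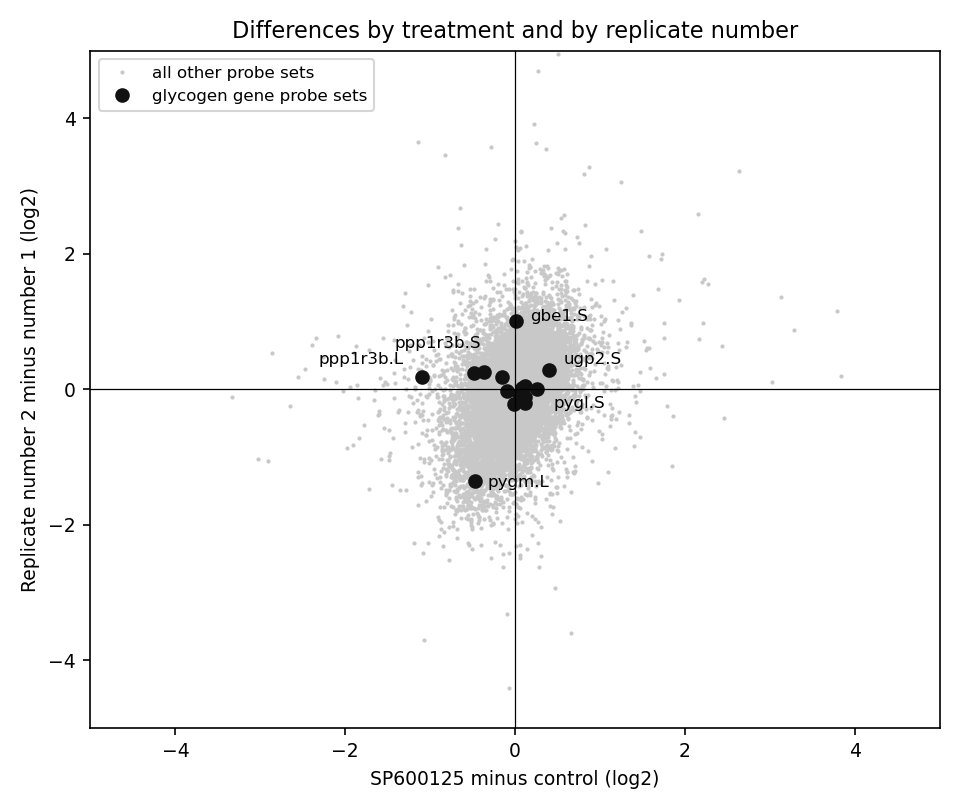
Each point is a probe set, with its log2 difference by treatment (SP600125 minus control) on the horizontal axis and by replicate number (number 2 minus number 1) on the vertical axis; black points are the 15 glycogen gene probe sets and grey points all others. The ppp1r3b.L point, chosen by its p-value in this contrast, lies along the treatment axis at −1.09. The gbe1.S point lies along the number axis at 1.00, and the pygm.L point lies at −1.35 by number and −0.47 by treatment.

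The glycogen probe sets were compared by the size of their differences by treatment and by replicate number. For some, the part of the sum of squares given by neither was the largest, at 82.1% for ugp2.L and 66.8% for pygl.S. Over the 13 probe sets without ppp1r3b, replicate number accounted for 65.0% of the pooled sum of squares and treatment for 13.8%, but the difference by number was the larger in size for 6 of these 13. For the pair of ppp1r3b probe sets the shares were 6.14% for replicate number and 93.0% for treatment. That pair includes the copy chosen by this contrast, so its shares are a description only. The largest number differences of the 13 were those of pygm.L, at −1.35, and gbe1.S, at 1.00. Of all 15 probe sets, it was the larger in 6, beside 70.4% of all probe sets in the table. In 6 of the 15 the sign of SP600125 minus control was opposite for replicates 1 and 2, beside 7941 of all 16745 probe sets.

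Because the muscle and liver forms of these genes are named for those tissues, the levels of marker lists are given beside them. The muscle and somite list (27 gene copies) had mean levels of 5.24 and 5.75 in SP600125 skins and 6.90 and 6.44 in control skins. Its median difference was −1.04, with 17 copies on one side below the controls and 0 above, beside 9.1% below and 12.3% above among all gene copies (21.4% on one side), and 10 of the 27 were dim. The brightest, the muscle actin actc1.L, read 9.33 and 8.93 in SP600125 skins and 11.77 and 10.44 in control skins. The groups of pygm.L and of the brighter pygm.S probe set overlapped, and those of the dimmer pygm.S probe set lay on the same side as this list. The pygm.L level was high in both replicate 1 arrays, at 8.05 in SP600125 skins and 8.13 in control skins, where the muscle list stood at 5.24 and 6.90. The part of muscle tissue in the pygm levels was not tested.

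The endoderm and liver list (23 gene copies, 13 of them dim) had mean levels of 4.84 and 4.78 in SP600125 skins and 5.31 and 5.29 in control skins. Its median difference was −0.20, with 18 means lower and 5 higher. On one side, 10 copies lay below and 1 above, beside 9.1% below and 12.3% above among all gene copies. The brightest, the plasma protease inhibitor a2m.S, differed by −0.84 ± 0.24. The largest differences were those of darmin.L (−3.33 ± 0.55) and gata4.L (−1.41 ± 0.20). The dim gata4.S differed by −0.25 ± 0.23, with overlapping groups. Both ppp1r3b copies lay on the same side as this list, but also on that of the muscle list, whose median difference was −1.04. The liver-type pygl.S had a higher mean in SP600125 skins, and gys2.L was dim. Among the genes of differentiated liver in the endoderm and liver list, the fibrinogen and apolipoprotein genes were dim, at mean levels between 2.88 and 3.62. The plasma carrier ttr.L and the precursor gene ambp.L were brighter, at means of 6.04 and 9.23, and differed by 0.61 ± 0.23 and 0.41 ± 0.38, with both SP600125 arrays above both controls for ttr.L and overlapping groups for ambp.L. The neural list (17 gene copies) had mean levels of 6.77 and 6.76 in SP600125 skins and 7.69 and 6.83 in control skins, with a median difference of −0.33. Of the neural copies, 4 lay below both controls and 1 above, beside the same 9.1% and 12.3%. The part of these tissues in the ppp1r3b difference was not tested.

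**Figure D3:**
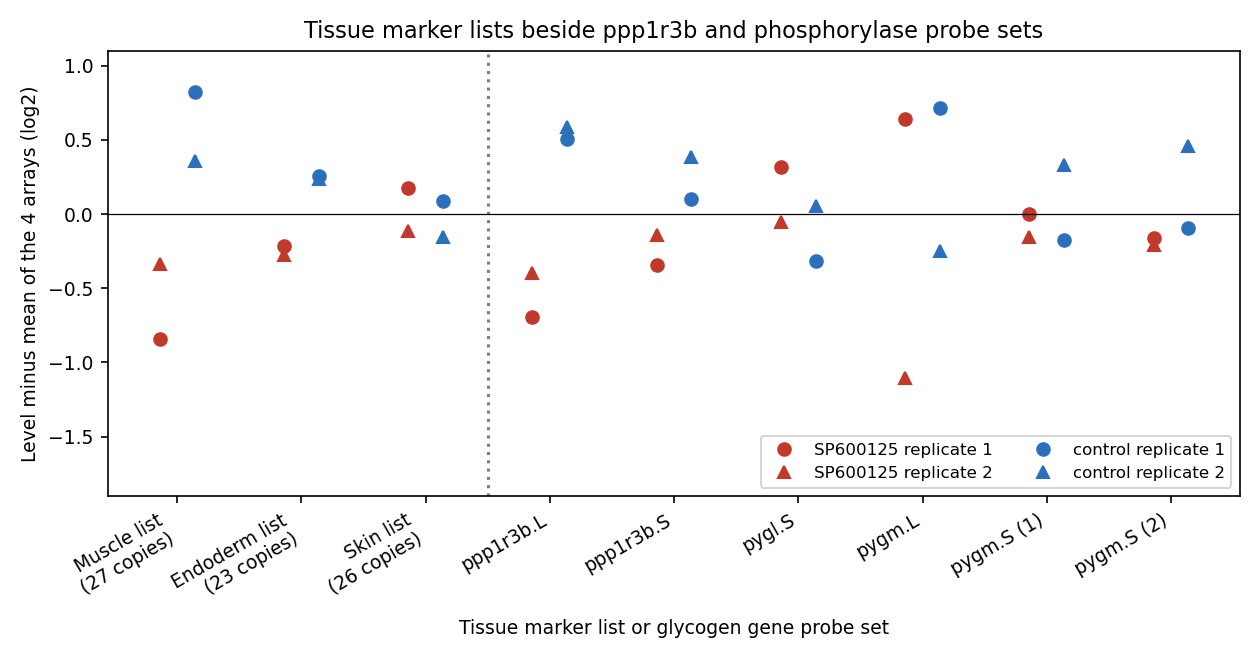
Mean level of 3 tissue marker lists (left of the dotted line) and level of the ppp1r3b, pygl and pygm probe sets (right), each as the log2 level minus its mean over the 4 arrays, with SP600125 skins in red and control skins in blue, circles for replicate 1 and triangles for replicate 2. The groups separate for the muscle and endoderm lists and for both ppp1r3b copies, and overlap for the skin list, pygl.S, pygm.L and the brighter pygm.S probe set, (1); the dimmer one, (2), separates by 0.07.

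Genes that act on the pathway were taken in 4 lists with 1 probe set per gene copy, the brightest. No gene copy in them passed at an adjusted p under 0.05 with limma. At an unadjusted limma p under 0.05 there were 1, 1, 2 and 1, in the order of the lists below, beside 1.61% of all probe sets. That share counts every probe set, not 1 per gene copy, so the units differ and the counts are not read. The glycogen regulators (20 copies) were phosphatase 1, phosphorylase kinase, glycogen synthase kinase 3, AMP-activated kinase and protein kinase A subunits. Of these, 1 lay above both controls and 3 below, beside 12.3% and 9.1% of all gene copies. The median was −0.09, against 0.02 over all 11295 gene copies, and turned to 0.01 without control replicate 2. The largest difference belonged to phkg2.L, a catalytic subunit of phosphorylase kinase, which activates phosphorylase. It read 7.46 and 7.70 in SP600125 skins and 6.94 and 6.83 in control skins, with no overlap and a difference of 0.69 ± 0.21. A second, dim probe set of phkg2.L differed by −0.03 ± 0.28. The AMP-activated kinase subunit prkag3.S, dim at 3.75 and 3.78 in SP600125 skins and 4.74 and 4.03 in control skins, differed by −0.62 ± 0.31, or −0.26 without control replicate 1, and its other probe set by −0.08 ± 0.22. The catalytic phosphatase subunits that ppp1r3b binds showed small or overlapping differences, with ppp1ca.L at −0.38 ± 0.53 and ppp1cc.S at −0.15 ± 0.24. The ppp1cb.L and ppp1cc.L copies were among the 3 below both controls, at only −0.03 ± 0.18 and −0.04 ± 0.18.

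Of 10 copies of glycogen primers and accessory enzymes, 4 lay above both controls and 1 below, beside 12.3% and 9.1% of all gene copies. Their median difference was 0.23, and 0.11 without control replicate 1. The glycogenin gene gyg1.S, whose product starts the glycogen chain, read 8.79 and 8.83 in SP600125 skins and 8.02 and 8.55 in control skins. The groups did not overlap, and the difference was 0.53 ± 0.26, or 0.26 without control replicate 1, while its other probe sets, both dim, differed by −0.09 ± 0.20 and 0.08 ± 0.22. Its homeolog gyg1.L read 9.76 and 7.78 in SP600125 skins and 8.39 and 7.93 in control skins, with overlapping groups. The galactokinase galk1.L, of the route from galactose to UDP-glucose, differed by 0.61 ± 0.22.

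Of 15 copies of genes of glucose entry and release, 3 lay above and 1 below, beside 12.3% and 9.1% of all gene copies. Their median was 0.10, and 0.26 without SP600125 replicate 2. The largest differences were in the gluconeogenic pck1.S (3.83 ± 0.82) and pck1.L (3.13 ± 0.87). The pck1.S probe set read 8.92 and 7.51 in SP600125 skins and 3.48 and 5.29 in control skins. Its control mean of 4.38 was under 5, so the size of its difference is uncertain. Without control replicate 1 the differences of pck1.S and pck1.L were 2.93 and 1.93, and without control replicate 2 they were 4.73 and 4.34. The glucose transporter slc2a2.L and the hexokinases hk1.L and hk2.L differed by 0.11 ± 0.37, 0.01 ± 0.22 and 0.11 ± 0.38. Of 16 copies of insulin and glucagon signal genes, 3 lay above and 1 below, beside the same 12.3% and 9.1%. Their median was 0.06. Leaving out control replicate 2 or SP600125 replicate 1 turned this median to −0.04 or −0.19, and leaving out control replicate 1 or SP600125 replicate 2 gave 0.15 or 0.24. The phosphoinositide 3-kinase regulatory subunit pik3r1.S read 6.47 and 6.63 in SP600125 skins and 5.90 and 6.004 in control skins, a difference of 0.60 ± 0.20. The kinase pdpk1.L, dim, differed by 0.34 ± 0.24, or 0.16 without control replicate 2.

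**Figure D4:**
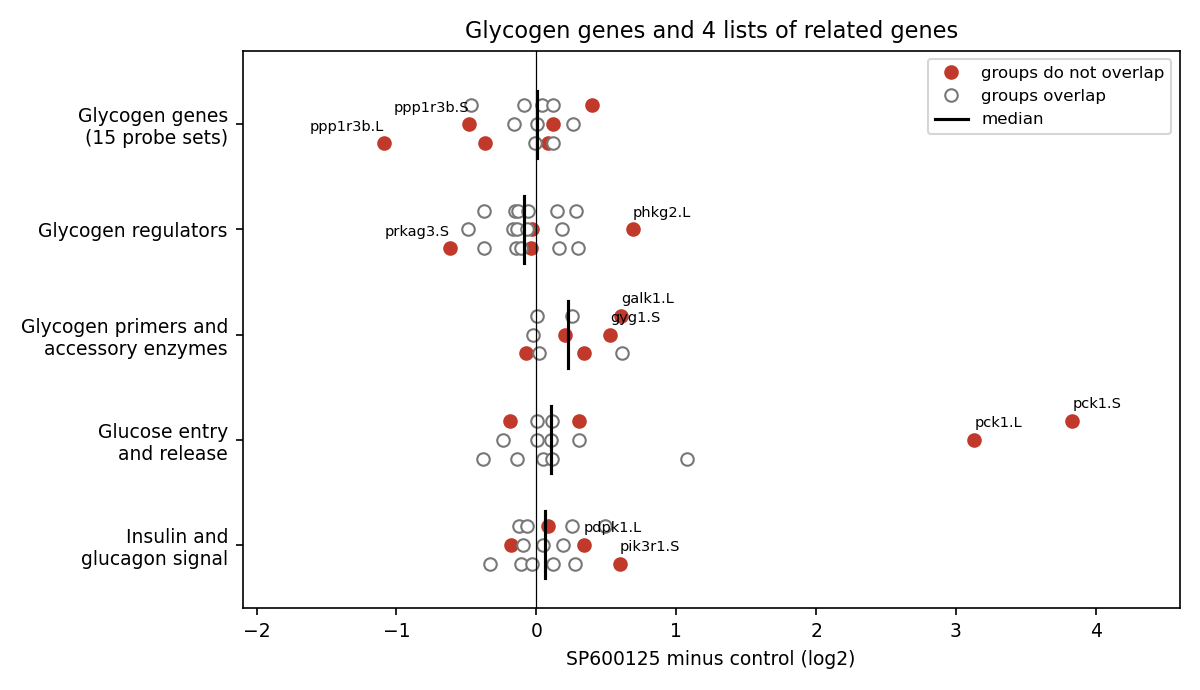
Log2 difference, SP600125 minus control, of the 15 glycogen gene probe sets and of the gene copies of 4 related lists; filled red points have groups that do not overlap, open points have overlapping groups, and the black line is the median of each row. Within the glycogen genes ppp1r3b.L lies lowest at −1.09, and in the related lists pck1.S and pck1.L lie highest at 3.83 and 3.13.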

How the data were processed

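Total RNA of whole embryonic skins was measured on Affymetrix arrays. The deposited values are log2 levels, 1 per probe set and array, made with affy and RMA per the submitters' processing notes, which give no version. The RMA steps subtract background, equalise the arrays' distributions and summarise the probes of a set, which hides any change common to most transcripts. Levels are not comparable between probe sets. The probe definition was not given in the sources used here, nor was any filter. Of 16755 probe sets, 10 control probe sets were left out. Names came from GEO's platform annotation: 15445 probe sets had 1 symbol, 279 several and 1021 none.

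The comparison of 2 SP600125 with 2 control arrays used limma 3.58.1 under R 4.3.3 (lmFit, eBayes, 2 residual degrees of freedom, two-sided, Benjamini-Hochberg over all probe sets, checked on simulated data). Figures used matplotlib 3.10.9. The members, lists and alternatives were chosen with earlier results of these data known. All members were accounted for. From each related list the 2 gene copies with the largest difference among those without overlap were named. From each marker list the brightest was named (syt1.L for the neural list, at 0.05 ± 0.19), and for ppp1r3b.L the 5 nearest profiles. Others were added after their values were seen. These were ppp1ca.L, ppp1cb.L, ppp1cc.L, ppp1cc.S, gyg1.L, slc2a2.L, hk1.L, hk2.L, ttr.L, ambp.L, darmin.L, gata4.L, gata4.S and the fibrinogen and apolipoprotein genes. The alternatives were a replicate block, no dim probe sets, renewed loess or quantile normalization, other variance settings, array weights, another unit or threshold, and each array left out.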

Additional observations from a re-analysis of the deposited data

How the results depend on the processing

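The count of probe sets with an adjusted p under 0.05 was 0 under every alternative, including an adjusted p under 0.1. The labels do not say what the replicate numbers share. Deviations from the group means correlated at 0.585 between same-numbered arrays, and with replicate number fitted as a block 0 probe sets were called and 1063 had an unadjusted p under 0.05, against 269 without it. That count was 158 without dim probe sets and between 149 and 516 with an array left out. The count of glycogen probe sets on one side was 9 to 13 with an array left out, where fewer arrays must separate, and 4 to 6 otherwise. No share over all probe sets is given for an array left out, so 9 to 13 is not read. Their median difference stayed between −0.08 and 0.05, and was below 0 after renewed loess (−0.01), without dim probe sets (−0.08) and without SP600125 replicate 2 (−0.0021). Over 145 recomputed differences of single glycogen probe sets, 134 kept their sign. The replicate block, variance settings, array weights and removal of dim probe sets left each difference as it was. This count is therefore no measure of stability, and 6 probe sets changed sign under at least 1 alternative. The difference of ppp1r3b.L ranged from −1.24 to −0.95 and that of ppp1r3b.S from −0.63 to −0.34. Those of gbe1.S (−0.72 to 0.73) and pygm.L (−1.34 to 0.41) depended on which array was left out. Such runs take the spread of a lone array from the other group. The number of arrays limits every value.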
